A study of Schizosaccharomyces pombe with 4 samples.

Results

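The nuclear genome of the fission yeast Schizosaccharomyces pombe carries the tRNA genes that read leucine and serine codons, and 26 of them are described here. They were chosen by identifier alone, as every gene of the deposited count table named SPATRNALEU, SPBTRNALEU, SPCTRNALEU, SPATRNASER, SPBTRNASER or SPCTRNASER. The rule used no read count, but earlier results of these data were known when it was set. They are 13 tRNA-Leu and 13 tRNA-Ser genes among 171 nuclear tRNA genes and 7049 genes in all. RNA depleted of ribosomal RNA was sequenced from delta4dus, a strain described by the submitters as deleted for its dus genes, which are dus1, dus2, dus3 and dus4, and from wild-type, with 2 libraries of each genotype (n = 2). Both strains were grown in the rich medium YES at 32 °C to an optical density near 0.5, and carry no other treatment in the labels. The labels do not say whether the replicates were separate cultures, so p-values measure the spread between these libraries, which may be technical. The question asked of the 26 genes is whether their read counts differ between delta4dus and wild-type.

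Transfer RNAs bring amino acids to the ribosome. RNA polymerase III transcribes their genes from promoter elements inside the gene, the A box and the B box, and stops at a run of T; the ends of the precursor are then trimmed, and an intron next to the anticodon is cut out by the Sen endonuclease and the exons joined by tRNA ligase. Dihydrouridine synthases, the enzymes encoded by the dus genes, reduce uridine to dihydrouridine, most often in the D loop of the tRNA, and the loop is named for that base. Cytoplasmic tRNA-Leu and tRNA-Ser have a long variable arm between the anticodon stem and the T arm, which in eukaryotes is read by the serine ligase.

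The long arm is visible in the sequences, which were taken by locus tag from the RefSeq ASM294v3 genome, where all 26 genes have the span given in the deposited table. Without the intron, the tRNA-Leu genes were 79 to 84 bases long and the tRNA-Ser genes 82 to 86, whereas the 145 other nuclear tRNA genes were 71 to 76 bases long (median 73), so that 0 of these reached the length of the shortest. The value of 86 belongs to SPBTRNASER.06, whose annotated intron is 2 bases shorter than in the copies with the same gene sequence. The annotation does not give anticodons. They were read from the folded sequence, and genes with the same spliced sequence or the same gene sequence, intron included, were grouped. This gave 6 groups of tRNA-Leu and 5 of tRNA-Ser, named here by anticodon in DNA letters. One sequence for each tRNA-Leu group is shown, to let the D loop, anticodon and variable arm be compared; these 3 are in capitals, in that order.

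tRNA-Leu-CAA: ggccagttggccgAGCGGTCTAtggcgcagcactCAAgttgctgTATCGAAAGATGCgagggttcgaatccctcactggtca

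tRNA-Leu-TAA: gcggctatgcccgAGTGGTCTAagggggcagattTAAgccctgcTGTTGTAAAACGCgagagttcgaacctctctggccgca

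tRNA-Leu-TAG: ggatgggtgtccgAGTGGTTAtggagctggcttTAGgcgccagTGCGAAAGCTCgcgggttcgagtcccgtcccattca

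tRNA-Leu-CAG: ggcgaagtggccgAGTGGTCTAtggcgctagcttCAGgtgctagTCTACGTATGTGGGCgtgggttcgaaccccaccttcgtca

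tRNA-Leu-AAG-1: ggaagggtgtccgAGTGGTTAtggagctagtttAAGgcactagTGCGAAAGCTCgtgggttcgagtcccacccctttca

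tRNA-Leu-AAG-2: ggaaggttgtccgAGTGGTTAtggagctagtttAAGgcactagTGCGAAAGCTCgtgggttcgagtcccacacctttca

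The sequences belong to SPBTRNALEU.06 (chromosome II, 1598745 to 1598845, minus strand), SPATRNALEU.02 (I, 2802761 to 2802858, minus), SPATRNALEU.03 (I, 3591948 to 3592044, plus), SPATRNALEU.01 (I, 1527088 to 1527181, minus), SPBTRNALEU.08 (II, 2768257 to 2768335, minus) and SPATRNALEU.04 (I, 4059028 to 4059106, minus), in the order shown. The CAA sequence stands for 4 genes, the first AAG sequence for 3, the TAA and second AAG sequences for 2 each, and the TAG and CAG sequences for a single gene each. Counted from 1 at the 5′ end, the second AAG sequence has G7T and C72A relative to the first, and these 2 positions face each other in the acceptor stem. The tRNA-Ser groups are shown in the same way.

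tRNA-Ser-AGA: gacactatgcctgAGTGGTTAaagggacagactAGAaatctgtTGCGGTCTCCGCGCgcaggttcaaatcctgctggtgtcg

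tRNA-Ser-GCT: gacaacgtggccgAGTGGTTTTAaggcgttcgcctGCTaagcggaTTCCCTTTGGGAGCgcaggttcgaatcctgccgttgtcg

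tRNA-Ser-CGA: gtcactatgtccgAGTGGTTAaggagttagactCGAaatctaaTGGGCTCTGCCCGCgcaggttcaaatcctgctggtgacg

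tRNA-Ser-TGA-1: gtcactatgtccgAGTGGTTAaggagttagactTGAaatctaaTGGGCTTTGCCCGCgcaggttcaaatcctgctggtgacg

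tRNA-Ser-TGA-2: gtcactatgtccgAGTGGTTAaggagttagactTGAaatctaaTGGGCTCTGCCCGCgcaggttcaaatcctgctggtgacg

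They belong to SPATRNASER.02 (I, 3047677 to 3047758, minus), SPCTRNASER.10 (III, 1253193 to 1253287, plus), SPATRNASER.01 (I, 1096369 to 1096466, plus), SPATRNASER.03 (I, 4265149 to 4265245, plus) and SPCTRNASER.11 (III, 1689713 to 1689809, plus). The AGA sequence stands for 7 genes and the GCT sequence for 3. The last 3 are near-identical: relative to the first TGA sequence, the second has T50C, and the CGA sequence has T34C and T50C, with T34C in the anticodon. The D loop, the part most often changed by dihydrouridine synthases, holds 2 T in tRNA-Leu-CAA, 5 T in tRNA-Ser-GCT and 3 T in every other group. The variable arm is 11 to 15 bases long.

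Introns are present in 14 of the 26 genes, 8 tRNA-Leu and 6 tRNA-Ser, in the ASM294v3 annotation. The count table treats 6 of these 14 as a single exon, so that reads in their intron were counted. The introns are shown because copies with one spliced sequence can differ there.

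SPBTRNALEU.06: taatacttggacgatagtc

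SPATRNALEU.02: aggcttctgccttgat

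SPBTRNALEU.05: aggcctcggccttgat

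SPATRNALEU.03: tgcgttcaacgcattgca

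SPATRNASER.01: ttcctacattcgtggc

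SPCTRNASER.11: tcctgtattctagtc

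The 4 copies of tRNA-Leu-CAA carry one intron of 19 bases, and the 2 copies of tRNA-Leu-TAA, SPATRNALEU.02 and SPBTRNALEU.05, carry introns of 16 bases that differ in sequence. SPATRNASER.03 has the intron shown for SPCTRNASER.11. The 12 genes with no intron are the 5 tRNA-Leu-AAG and the 7 tRNA-Ser-AGA genes.

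Motifs were searched on the strand of the gene, and a match describes the letters only. The B box motif GTTCNANNC was found in all 26 genes and in 130 of the 145 other nuclear tRNA genes (89.7%). The letters TATA occurred within 60 bases upstream of 23 of the 26 genes (88.5%) and of 113 of the others (77.9%). A run of TTTT, the signal at which RNA polymerase III stops, occurred within 60 bases downstream of 23 of the 26 genes (88.5%) and of 144 of the others (99.3%), and its first base lay 2 to 19 bases after the gene, with a median of 5.

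The genes with no TTTT run in that window were SPATRNASER.01, SPATRNASER.03 and SPCTRNASER.11, the CGA gene and both TGA genes. Each is followed on the same strand, after the 7 bases GTATTTG, by a tRNA-Met gene: SPATRNAMET.01, SPATRNAMET.03 and SPCTRNAMET.07. The 3 tRNA-Met genes have one sequence, RefSeq names the last of them imt07, and TTTT begins 4 bases after each of them. In fission yeast such serine and methionine pairs are known to be transcribed as 1 precursor that is later cut. The pair on chromosome I that begins with SPATRNASER.01 (1096369 to 1096545, plus strand) is shown with the intron and the spacer in capitals.

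SPATRNASER.01 and SPATRNAMET.01: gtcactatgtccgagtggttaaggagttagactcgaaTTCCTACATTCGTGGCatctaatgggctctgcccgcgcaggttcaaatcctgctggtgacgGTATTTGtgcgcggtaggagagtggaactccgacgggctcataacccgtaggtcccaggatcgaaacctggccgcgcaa

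The libraries held 435405178 and 495098038 counts in delta4dus and 289767027 and 264948323 in wild-type. Ribosomal RNA genes took 86.4% and 90.7% of these in delta4dus and 84.7% and 84.8% in wild-type. The 26 genes held 49392 and 77236 counts in delta4dus and 36556 and 44031 in wild-type. As a check of the labels, dus1, dus2 and dus3 were called lower in delta4dus by the edgeR quasi-likelihood test, Benjamini-Hochberg adjusted, with log2 fold changes of −3.86, −2.95 and −1.56 (adjusted p = 0.00418, 0.000224 and 0.000818). Normalised counts, given for each library throughout, are read counts divided by the relative library size after TMM scaling. The normalised count of dus4 was 314 and 156 in delta4dus and 541 and 571 in wild-type, with a log2 fold change of −1.23 and an adjusted p of 0.626 by the same test. The counts of dus4, though lower in both delta4dus libraries, therefore do not show its loss by this test, and dus3 kept 1308 and 1362 in delta4dus, against 3954 and 3929 in wild-type. Which stretch of each gene was removed was not stated.

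None of the 26 genes was called different between delta4dus and wild-type in the fit with genotype as its only term. All 26 had a higher mean in delta4dus, with log2 fold changes between 0.05 and 1.63 and a median of 0.52, against a median of 0.00 over all 6813 genes tested, of which 50.0% lay above 0. For most of the genes the sign follows the scaling. With library totals alone, which moved the median of all genes by −0.42, 10 of 26 lay above 0 and 16 below, with a median of −0.04. All 26 still lay above the median of all genes there. With RLE size factors, or without ribosomal RNA genes, 26 of 26 lay above 0. All 26 passed the filter on low counts. The smallest adjusted p was 0.599 by the edgeR quasi-likelihood test, Benjamini-Hochberg adjusted, and 0 of 26 were called at an adjusted p under 0.05, where 0.0734% of all genes were. An unadjusted p under 0.05 was reached by 3 of the 26, all higher in delta4dus, against a background of 3.55% of genes in that direction. All 3 are tRNA-Leu-AAG genes of near-identical sequence, so they are not 3 separate observations. Among the 145 other nuclear tRNA genes, 28 reached it in either direction. DESeq2 called 0 of 26 (0.763% of all genes), with a smallest adjusted p of 0.176, and 0 of 26 passed in the authors' deposited table (0.700% of its genes), where the smallest adjusted p was 0.234. With the replicate number added to the edgeR fit as a block, 11 of 26 were called, where 12.1% of all genes were. Some of these 11 are copies of the same spliced sequence. The labels do not tie a replicate number to a shared batch.

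In the fit with genotype as its only term, the direction rested on 1 library for most of the genes. The second delta4dus library was the highest of the 4 for 26 of 26 genes. The first delta4dus library lay below the second wild-type library for 20 of them and below the first for 10. The second wild-type library in turn lay above the first wild-type library for 25 of 26 genes. Without the second delta4dus library, 8 of 26 genes had a log2 fold change above 0 and the median was −0.18. Leaving it out also makes the replicate numbers unequal between the genotypes. Both AAG sequences and SPATRNALEU.03 stayed above 0 without any 1 library. The groups did not overlap, with delta4dus higher, for 6 of the 26 genes (23.1%), where 19.0% of all genes and 44 of 145 other nuclear tRNA genes (30.3%) did so.

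In other classes of small RNA, too, the second delta4dus library was the highest. Relative to the mean of the 4 libraries, the sum over the 26 genes was 0.703 and 1.598 in delta4dus and 0.697 and 1.00 in wild-type. Other nuclear tRNA genes summed to 0.878 and 1.59 in delta4dus and 0.645 and 0.891 in wild-type, and 25 mitochondrial tRNA genes to 0.931 and 1.35 in delta4dus and 0.749 and 0.975 in wild-type. For 36 genes of 5S ribosomal RNA, also made by RNA polymerase III, these values were 0.597 and 1.77 in delta4dus and 0.502 and 1.13 in wild-type. Small nucleolar RNA was more even, at 0.873 and 1.12 in delta4dus and 0.910 and 1.10 in wild-type. Delta4dus and wild-type overlapped in all 5 classes, and the part that the high second delta4dus library has in the result was not tested. In bulk RNA, fewer cells with a transcript and less of it per cell cannot be told apart.

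**Figure D1:**
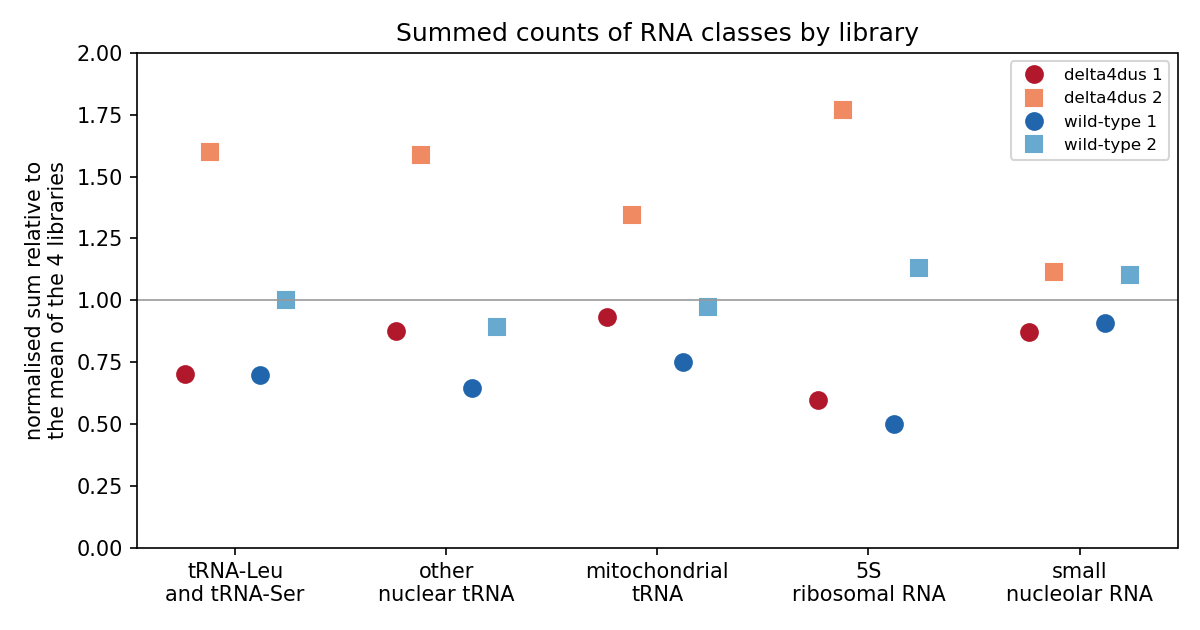
Summed normalised count of 5 RNA classes in each library (vertical axis, relative to the mean of the 4 libraries; 1 point per library, delta4dus left of wild-type). The second delta4dus library is the highest in every class shown, at 1.598 for tRNA-Leu and tRNA-Ser, and the groups overlap in each.

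Reads that lie within the tRNA cannot be assigned to 1 of several copies of the same sequence, and the counting options for such reads were not stated. The 4 copies of tRNA-Leu-CAA held 7268 to 7358 counts in the first delta4dus library, while copies of other groups differed more. Copies are therefore not taken as separate measurements, and their counts were also summed by isotype and by sequence group. A sum may hold a read more than once, so it is not a number of molecules. The summed normalised count of tRNA-Leu was 25517 and 60444 in delta4dus, against 25728 and 35340 in wild-type. The second delta4dus library stood highest, the first lay just below the first wild-type library and farther below the second, and the groups overlapped. The log2 fold change was 0.49 (SE 0.557, 95% interval from −1.35 to 2.34) with an adjusted p of 0.903 by the edgeR quasi-likelihood test.

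The summed normalised count of tRNA-Ser was 12258 and 25645 in delta4dus, against 11644 and 18544 in wild-type. Here too the second delta4dus library stood highest and the groups overlapped. For the sum, the log2 fold change was 0.33 (SE 0.553, 95% interval from −1.61 to 2.27) with an adjusted p of 0.933 by the edgeR quasi-likelihood test. With library totals alone both sums lay below 0, at −0.073 for tRNA-Leu and −0.21 for tRNA-Ser. Ordered by log2 fold change among the 20 isotypes, tRNA-Leu came at rank 16 and tRNA-Ser at rank 19. With TMM scaling all 20 isotypes lay above 0, and 1, tRNA-Cys, was called (0.0901% of all features tested there).

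The largest tRNA-Leu group by level was tRNA-Leu-CAA, which reads the leucine codon UUG. Its summed normalised count was 22383 and 52619 in delta4dus and 23822 and 31116 in wild-type, so that its first delta4dus library was the lowest of the 4. Its highest copies, SPBTRNALEU.06 and SPBTRNALEU.07, had identical counts, with 5630 and 13166 in delta4dus and 6003 and 7821 in wild-type after normalisation. SPCTRNALEU.13 (III, 1102809 to 1102909, plus) had 5561 and 13134 in delta4dus and 5910 and 7734 in wild-type. Within a library the highest copy held 1.00 to 1.02 times the counts of the lowest. For the group, the log2 fold change was 0.45. None of the 11 sequence groups was called (0.0883% of all features tested there).

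tRNA-Leu-TAA, whose 2 copies differ in their introns, had a summed normalised count of 1752 and 4559 in delta4dus and 1114 and 2811 in wild-type. The second library was the higher in each genotype and the groups overlapped. SPATRNALEU.02 had 700 and 1832 in delta4dus and 407 and 1111 in wild-type, and SPBTRNALEU.05 (II, 1402444 to 1402541, minus) had 1052 and 2727 in delta4dus and 707 and 1699 in wild-type. The higher copy, SPBTRNALEU.05, was counted without its intron and still held 1.49 to 1.74 times the counts of SPATRNALEU.02, which was counted with it. The log2 fold change was 0.65 for SPBTRNALEU.05 and 0.74 for SPATRNALEU.02.

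SPATRNALEU.01, the single tRNA-Leu-CAG gene, was the member with the widest interval. Its normalised count was 92.6 and 516 in delta4dus and 113 and 278 in wild-type, with the lowest and the highest value both in delta4dus. The gene had a log2 fold change of 0.63, with an interval from −3.20 to 4.47. The non-coding RNA SPNCRNA.174 lies 12 bases away on the opposite strand.

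The tRNA-Leu-AAG genes, which have no intron, were the largest set in which both delta4dus libraries lay above both wild-type libraries. The summed count of the first sequence, normalised, was 541 and 854 in delta4dus and 377 and 500 in wild-type, and that of the second was 296 and 372 in delta4dus and 157 and 203 in wild-type. In both sequences the delta4dus and wild-type libraries did not overlap. The second sequence had a log2 fold change of 0.89 (SE 0.208, 95% interval from 0.37 to 1.41), with an unadjusted p of 0.00632 and an adjusted p of 0.532 by the edgeR quasi-likelihood test. The first had 0.67 (SE 0.284, 95% interval from −0.11 to 1.44).

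All 5 of these genes had groups that did not overlap, where 19.0% of all genes and 30.3% of other nuclear tRNA genes were without overlap and higher. The 5 share a sequence but for 2 bases, so that they are not 5 separate observations. SPATRNALEU.04 had a normalised count of 197 and 239 in delta4dus and 116 and 134 in wild-type, and its unadjusted p of 0.00899 was the smallest of the 26 by the edgeR quasi-likelihood test (adjusted p = 0.599). SPBTRNALEU.08 had 91.1 and 150.1 in delta4dus and 46.1 and 67.2 in wild-type, with a log2 fold change of 1.09. SPBTRNALEU.10 (II, 3914043 to 3914121, plus), the highest copy, had 324 and 523 in delta4dus and 257 and 317 in wild-type. SPCTRNALEU.11 (III, 1069166 to 1069244, plus), which has the centromere-proximal non-coding RNA SPNCRNA.1172 at 23 bases on the opposite strand, had 125 and 181 in delta4dus and 73.8 and 116 in wild-type.

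The copies of the first AAG sequence were the least alike of any group. SPBTRNALEU.10 held 3.48 to 5.58 times the counts of the lowest copy with the same sequence, in the range over the 4 libraries, and SPATRNALEU.04 held 1.81 to 2.83 times those of SPBTRNALEU.09. The 7 tRNA-Ser-AGA copies held counts within 1.84 to 2.45 times of each other.

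Among the tRNA-Ser groups, tRNA-Ser-GCT had a summed normalised count of 4186 and 12955 in delta4dus and 3694 and 8232 in wild-type. The second library was the higher in each genotype, by a wider margin in delta4dus, and the groups overlapped, with a log2 fold change of 0.52. SPCTRNASER.10, its highest copy, had 1454 and 4512 in delta4dus and 1343 and 2852 in wild-type, and SPBTRNASER.06 (II, 3350594 to 3350688, plus) had 1378 and 4228 in delta4dus and 1187 and 2684 in wild-type. The copies held counts within 1.06 to 1.15 times of each other.

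tRNA-Ser-AGA, the group with most copies, had a summed normalised count of 661 and 1261 in delta4dus and 619 and 782 in wild-type. The first delta4dus library lay between the wild-type libraries. SPATRNASER.02, the highest copy, had 140 and 234 in delta4dus and 131 and 165 in wild-type. SPCTRNASER.07 (III, 473199 to 473280, minus), the copy with the smallest p, had 97.9 and 187 in delta4dus and 77.9 and 108 in wild-type, with a log2 fold change of 0.61 and an adjusted p of 0.764 by the edgeR quasi-likelihood test. The 7 copies had log2 fold changes between 0.18 and 0.61. Groups without overlap were seen for 0 of the 13 tRNA-Ser genes, where 19.0% of all genes were without overlap and higher and 19.7% without overlap and lower.

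**Figure D2:**
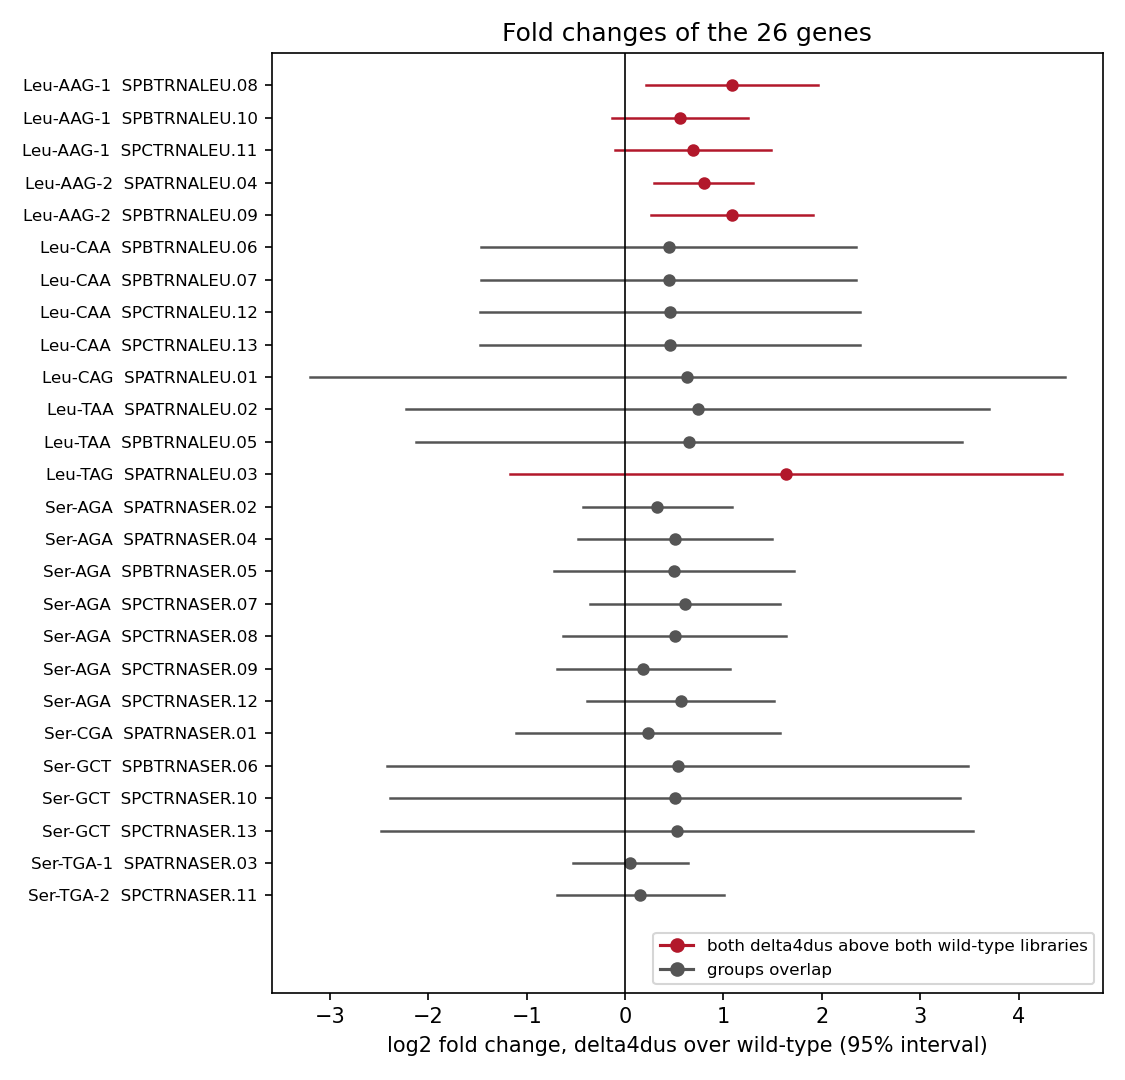
Log2 fold change of each of the 26 genes, delta4dus over wild-type (horizontal axis), with its 95% interval from edgeR, ordered by sequence group. Points lie between 0.05 and 1.63 with TMM scaling. With library totals alone 10 of 26 lie above 0, and all 26 lie above the median of all genes. The 5 tRNA-Leu-AAG genes and SPATRNALEU.03, drawn in red, are those in which both delta4dus libraries exceed both wild-type libraries, as in 19.0% of all genes.

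The serine and methionine pairs had the lowest log2 fold changes among the sequence groups. SPATRNASER.01 (CGA) had a normalised count of 2616 and 4445 in delta4dus and 2461 and 3539 in wild-type, with a log2 fold change of 0.23. SPATRNASER.03 (TGA) had 2224 and 3028 in delta4dus and 2282 and 2772 in wild-type, with a log2 fold change of 0.05 and an interval from −0.53 to 0.64. SPCTRNASER.11 (TGA) had 2576 and 3900 in delta4dus and 2615 and 3201 in wild-type, with a log2 fold change of 0.15. Groups overlapped in all 3, and the second delta4dus library was again the highest.

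Each of these genes is followed by a tRNA-Met gene, its partner here. SPATRNAMET.01, SPATRNAMET.03 and SPCTRNAMET.07 had log2 fold changes of 0.26, 0.21 and 0.24, and their summed normalised count was 3566 and 5456 in delta4dus and 3262 and 4373 in wild-type. The 3 tRNA-Ser genes of the pairs summed to 7416 and 11373 in delta4dus and 7359 and 9512 in wild-type. The reads of the tRNA-Ser genes were 2.08 and 2.08 times those of their partners in delta4dus and 2.26 and 2.18 times in wild-type. The other 10 tRNA-Ser genes summed to 4847 and 14213 in delta4dus and 4313 and 9014 in wild-type, and so differed more between the libraries of 1 genotype. These sums were chosen after the values were seen, and the difference between the sets was not tested. The tRNA-Met genes have one sequence, so their reads cannot be assigned to 1 copy.

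SPATRNALEU.03, the single tRNA-Leu-TAG gene, had the highest log2 fold change of the 26. Its normalised count was 462 and 1399 in delta4dus and 202 and 399 in wild-type. Both delta4dus libraries lay above both wild-type libraries, and the 2 delta4dus libraries were farther from each other than the first was from wild-type. Its log2 fold change of 1.63 had an interval from −1.17 to 4.44 (SE 0.823) and a p of 0.75 after adjustment by the edgeR quasi-likelihood test. Without the second delta4dus library it was 0.63.

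In the deposited table this gene lies on the same strand inside the single counted exon of SPAC17G6.03 (I, 3590440 to 3595067), which RefSeq describes as a phosphoprotein phosphatase. In ASM294v3 the model of SPAC17G6.03 begins at 3593038, beyond the tRNA gene. The normalised count of SPAC17G6.03 was 1288 and 2171 in delta4dus and 967 and 1182 in wild-type, with a log2 fold change of 0.68 and an adjusted p of 0.729 by the edgeR quasi-likelihood test. Its groups did not overlap. When the counts of SPATRNALEU.03 were subtracted, 826 and 772 remained in delta4dus and 765 and 784 in wild-type, which overlap, with a log2 ratio of the means of 0.04. This subtraction was chosen after the values were seen, and it holds only where reads were counted at both genes.

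**Figure D3:**
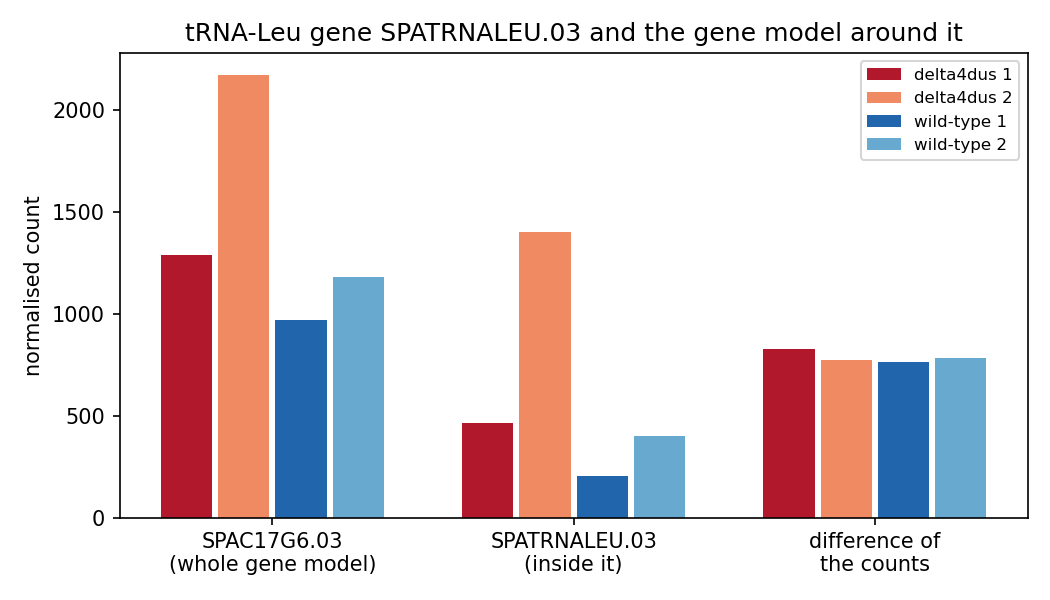
Normalised count (vertical axis) of SPAC17G6.03, of SPATRNALEU.03, which the deposited annotation places inside it, and of the difference of their counts, in each library, delta4dus left of wild-type. The difference lies between 765 and 826 in all 4 libraries, while SPATRNALEU.03 lies between 202 and 1399.

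Levels were set against each other per base of the counted gene, as normalised counts per base averaged over the copies of a group. tRNA-Leu-CAA was highest, at 114 in delta4dus and 83.8 in wild-type. tRNA-Ser-CGA followed with 36.02 in delta4dus and 30.6 in wild-type. The second tRNA-Ser-TGA had 33.4 in delta4dus and 30.0 in wild-type, and the first had 27.1 in delta4dus and 26.1 in wild-type. tRNA-Ser-GCT had 33.7 in delta4dus and 23.5 in wild-type. The library values of these 4 serine groups overlapped one another in both genotypes. tRNA-Leu-TAA reached 17.98 in delta4dus and 11.2 in wild-type, tRNA-Leu-TAG 9.59 in delta4dus and 3.10 in wild-type, and tRNA-Leu-CAG 3.24 in delta4dus and 2.08 in wild-type. The first tRNA-Leu-AAG sequence had 2.94 in delta4dus and 1.85 in wild-type, and the second 2.11 in delta4dus and 1.14 in wild-type. tRNA-Ser-AGA was at 1.67 in delta4dus and 1.22 in wild-type. From tRNA-Leu-TAG downwards, neighbours in this order overlapped over libraries in delta4dus.

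**Figure D4:**
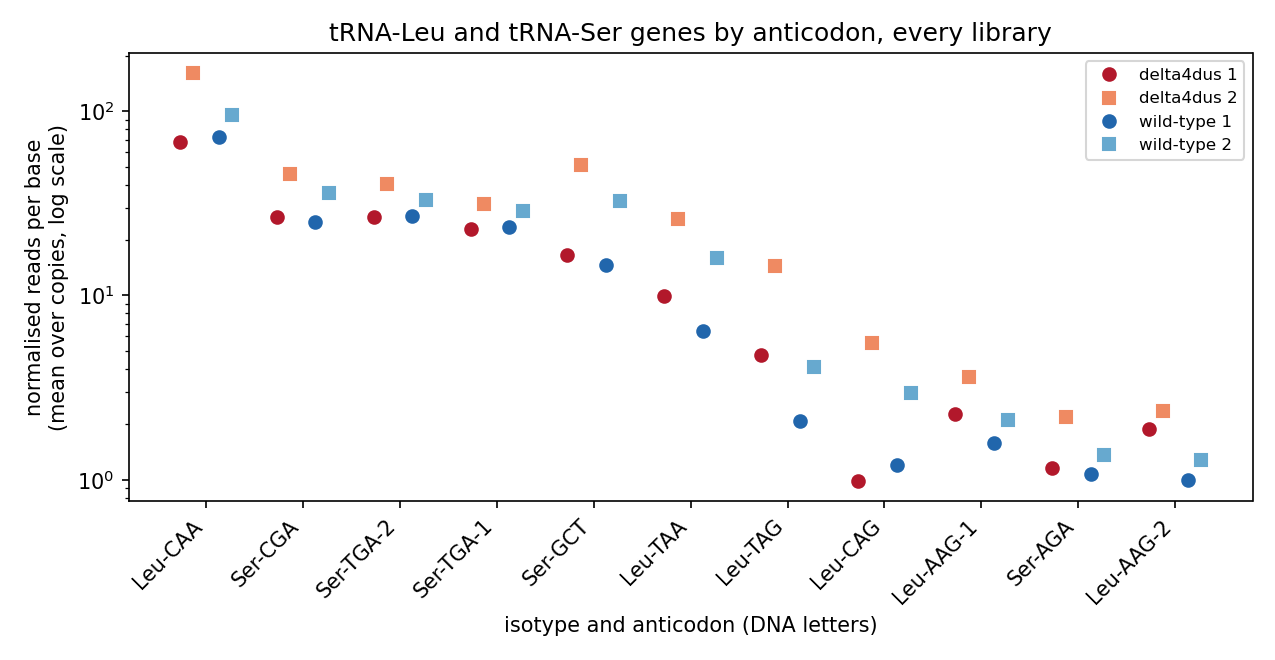
Normalised count per base of each sequence group (vertical axis, log scale, mean over copies), 1 point per library with delta4dus left of wild-type, ordered by the wild-type level. tRNA-Leu-CAA averages 114 in delta4dus and 83.8 in wild-type, and tRNA-Leu-AAG-2 averages 2.11 in delta4dus and 1.14 in wild-type.

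The order of levels divided the genes by intron. The 14 genes with an intron had a median of 33.3 normalised counts per base in delta4dus and 25.5 in wild-type, and the 12 without had 1.74 in delta4dus and 1.22 in wild-type. Of the 14, 13 lay above every gene without an intron in delta4dus and 12 did in wild-type, SPATRNALEU.01 being below the highest of them, SPBTRNALEU.10, in both and SPATRNALEU.03 in wild-type. The 12 genes without an intron are all the AAG and AGA genes, so that intron and anticodon cannot be told apart here. They come from 3 sequence groups, so the contrast rests on few separate sequences, and no test was made. Of the 14 genes with an intron, 6 were counted with it in their length. Among other isotypes, the 30 genes with an intron had a median of 7.24 in delta4dus and 4.15 in wild-type, and the 115 without had 9.60 in delta4dus and 5.9997 in wild-type, with wide overlap. The log2 fold change had a median of 0.48 over members with an intron and 0.56 over those without.

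**Figure D5:**
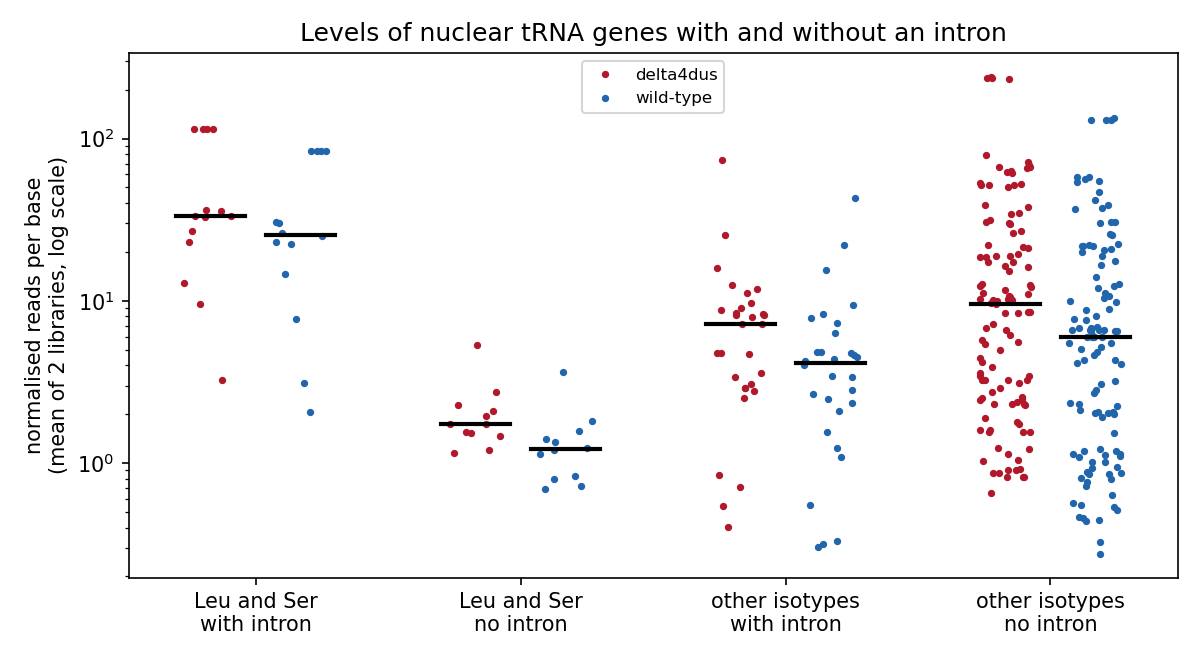
Normalised count per base of 171 nuclear tRNA genes (vertical axis, log scale, mean of 2 libraries), 1 point per gene and genotype, delta4dus left of wild-type; bars are medians. Leucine and serine genes have medians of 33.3 with an intron and 1.74 without in delta4dus, while the other isotypes overlap widely.

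Set against the other nuclear tRNA genes of the same library, tRNA-Leu and tRNA-Ser took a smaller share in both delta4dus libraries than in either wild-type library. The 26 genes held 19.2% and 23.0% of nuclear tRNA counts in delta4dus and 24.2% and 24.99% in wild-type. The means were 21.1% ± 2.69 in delta4dus and 24.6% ± 0.524 in wild-type (SD, n = 2 each), a difference of −3.52 percentage points. The exact two-sided permutation p was 0.333, the smallest that 2 against 2 libraries allow, so that no difference of this kind could pass a threshold of 0.05. tRNA-Leu took 12.96% and 16.1% in delta4dus and 16.7% and 16.4% in wild-type. Most tRNA-Leu counts were those of tRNA-Leu-CAA, with 29255 of 33364 and 47305 of 54228 in delta4dus. In wild-type they were 23251 of 25166 and 25451 of 28878. A read may be held more than once in these sums. tRNA-Ser took 6.23% and 6.85% in delta4dus and 7.55% and 8.60% in wild-type.

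The same comparison was made with the counts of the 145 other nuclear tRNA genes as library size. This scaling moved the median of all genes by −0.60 on the log2 scale. The log2 fold change was then −0.25 for tRNA-Leu (95% interval from −1.33 to 0.84, adjusted p = 0.71) and −0.37 for tRNA-Ser (95% interval from −1.52 to 0.78, adjusted p = 0.613) by the edgeR quasi-likelihood test, and 0.0450% of all features tested there were called. With this scaling the SE lay between 0.55 and 0.69 for every sequence group, whatever the spread of its own libraries. These intervals and p-values thus reflect a spread pooled over all features, and the lack of a call says little about these tRNAs. The other nuclear tRNA genes had a median log2 fold change of 0.69 in the comparison with TMM scaling, with 143 of 145 above 0 and 0 called.

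A list of 38 genes was taken by product name or symbol for the transcription, processing, modification or charging of tRNA, leaving out the dus genes, and 0 were called. These names do not say whether an enzyme acts on nuclear-encoded or mitochondrial tRNA, so some may not act on the tRNAs described here. The list had a median log2 fold change of −0.02, with 13 genes above 0 and 25 below, between −0.24 (sen15) and 0.16 (dia4), and 0 reached an unadjusted p under 0.05 by the edgeR quasi-likelihood test. The smallest adjusted p was 0.692, shared by trl1, the tRNA ligase that joins exons after intron removal, and dia4, a serine-tRNA ligase. The normalised count of trl1 was 3021 and 3116 in delta4dus and 3279 and 3328 in wild-type, a log2 fold change of −0.11, and that of dia4 was 1434 and 1509 in delta4dus and 1259 and 1382 in wild-type. Next by p was trz1, an endonuclease that trims the 3′ end of tRNA precursors, at 3543 and 3355 in delta4dus and 3708 and 3707 in wild-type. The groups did not overlap in any of the 3. Over the list this held for 14 genes, of which 11 were lower and 3 higher in delta4dus, where 19.7% of all genes were without overlap and lower and 19.0% without overlap and higher.

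The 4 genes annotated as leucine-tRNA or serine-tRNA ligases had log2 fold changes between −0.02 and 0.16. lrs1, a leucine-tRNA ligase, had a normalised count of 33307 and 37552 in delta4dus and 31269 and 33735 in wild-type, with a log2 fold change of 0.12 and overlapping groups. srs1, a serine-tRNA ligase, had 18082 and 18940 in delta4dus and 18371 and 18944 in wild-type, a log2 fold change of −0.01. The other leucine-tRNA ligase in the annotation, SPAC4G8.09, had −0.02. By role, the median log2 fold change was 0.06 for 4 ligases, −0.02 for 19 transcription genes, −0.10 for 5 intron removal genes, −0.01 for 6 modification genes and −0.03 for 4 genes of end maturation and export.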

How the data were processed

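Per the labels' protocols, total RNA was isolated by hot phenol, depleted of ribosomal RNA and made into strand-specific libraries. Per the submitters' processing notes, Trimmomatic 0.36 trimmed the reads, TopHat2 aligned them to ASM294v2 and featureCounts counted them; counting options for shared reads were not stated. The authors deposited raw counts per gene, and a table of their own comparison with log2 fold changes, a test score, p-values and a mean normalised signal, for which DESeq2 is named.

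Counts were fitted here with edgeR 4.0.16 in R 4.3.3: filterByExpr defaults (minimum count 10, minimum total 15) left 6813 of 7049 genes, libraries were scaled by TMM (factors 1.094 and 0.662 in delta4dus, 1.227 and 1.125 in wild-type), and a robust quasi-likelihood model with genotype as its term (2 residual degrees of freedom) was tested two-sided, with Benjamini-Hochberg adjustment over all genes. Genes were called at an adjusted p under 0.05. Normalised counts are counts over the relative TMM-scaled library size. Isotype and sequence-group sums replaced their genes in separate fits. Since the annotation gives no anticodons, the sums planned by anticodon were made over copies of one sequence. Alternatives were DESeq2 1.42.0, other scalings, filters, left-out libraries and a replicate block. Intervals cover the spread between libraries, which with other nuclear tRNA counts as library size is pooled over all features. Reads have no molecular identifiers.

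On simulated counts for 6813 genes in this design, edgeR called 30 of the 67 genes given a 1.5-fold change (44.8%). It called 52 of 67 at 2-fold (77.6%) and 62 of 66 at 4-fold (93.9%). Beside these true calls stood 21 false ones, among 6613 genes left unchanged. The changed genes were drawn at random from all tested genes but those of lowest count. These shares therefore do not say how often such changes would be called among the 26 genes, whose SE lay between 0.20 and 1.15. Members, lists and tests were chosen with earlier results of these data known. Named with values are, in each sequence group, the copy with the highest mean and that with the smallest p, genes within 50 bases of another gene, the ligases and the 3 listed genes with the smallest p. Of 18 gene symbols sought for the list, 16 were found.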

Additional observations from a re-analysis of the deposited data

How the results depend on the processing

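Every gene stayed uncalled under the other scalings, filters, DESeq2 and left-out libraries that were run; only the replicate block gave calls. With library totals alone, which moved the median of all genes by −0.42, log2 fold changes were −0.073 for tRNA-Leu, −0.21 for tRNA-Ser, −0.12 for Leu-CAA (SPBTRNALEU.06 −0.12, SPCTRNALEU.13 −0.11), −0.022 for Leu-CAG, −0.074 for Ser-AGA (SPATRNASER.02 −0.17), −0.27 for Ser-CGA, −0.069 for Ser-GCT (SPBTRNASER.06 −0.055, SPCTRNASER.10 −0.086), −0.42 for the first Ser-TGA and −0.33 for the second. With other nuclear tRNA counts as library size they were −0.25, −0.37, −0.29 (−0.30 and −0.29), −0.17, −0.25 (−0.34; SPCTRNASER.07 −0.073), −0.43, −0.21 (−0.20 and −0.23), −0.58 and −0.50 in the same order, −0.0029 for Leu-TAA (SPBTRNALEU.05 −0.041) and −0.11 for SPBTRNALEU.10. Leu-TAG, Leu-AAG-2 and Leu-AAG-1 stayed above 0 with other nuclear tRNA counts as library size, at 0.89, 0.28 and 0.012. Under both scalings the median of all genes lay below each of the 26.

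Leaving out 1 library at a time gave ranges of −0.26 to 0.98 for tRNA-Leu, −0.30 to 0.76 for tRNA-Ser, −0.29 to 0.93 for Leu-CAA (SPCTRNALEU.13 −0.29 to 0.94), −1.07 to 1.42 for Leu-CAG, −0.16 to 1.4995 for Leu-TAA (SPATRNALEU.02 −0.11 to 1.63, SPBTRNALEU.05 −0.19 to 1.41), −0.081 to 0.85 for Ser-AGA (SPATRNASER.02 −0.078 to 0.66), −0.20 to 0.56 for Ser-CGA, −0.51 to 1.21 for Ser-GCT (SPBTRNASER.06 −0.49 to 1.24, SPCTRNASER.10 −0.53 to 1.15), −0.18 to 0.26 for the first Ser-TGA and −0.17 to 0.42 for the second. Each lower end is without the second delta4dus library. Leu-AAG-1 (0.31 to 0.96), Leu-AAG-2 (0.71 to 1.09) and Leu-TAG (0.63 to 2.23) stayed above 0. With 1 library left in a genotype, its spread is taken from the other. The cause of these shifts was not tested.

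With the replicate number as a block, 11 of 26 genes were called (adjusted p from 1.0e-12 to 0.0448), all higher in delta4dus, where 12.1% of all genes were called. Some, such as SPATRNALEU.02 and SPBTRNALEU.05, are copies of the same spliced sequence, so that they are not 11 separate observations. The sums that then passed had log2 fold changes of 0.27 for tRNA-Ser, 0.65 for Leu-AAG-1, 0.89 for Leu-AAG-2, 0.68 for Leu-TAA, 1.54 for Leu-TAG and 0.21 for Ser-CGA. Deviations of same-numbered libraries correlated (Pearson 0.635, 6813 genes), but the labels do not tie a number to a shared batch, and 2 pairs are too few to tell. At a minimum of 1 CPM, 13 of the 26 genes were tested.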
